A study of Homo sapiens with 11 samples.

Results

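The 10 genes described here encode surface, secreted and lysosomal proteins: CD38, LILRA2, IGSF6, SORL1, SERPINF1, SEMA6B, HTR2B, MANSC1, CD68 and CD14. They were grouped under the name of monocyte genes, and whether that name holds for each was not tested. The choice rested on measured values. Of the 10, 8 were taken because they ranked among the 10 highest differences between the triple RUNX knockdown array and its control, and CD68 and CD14 were taken as monocyte markers. Each has 1 transcript cluster (the array's unit, probes that report on 1 locus) that the platform annotation lists under its symbol alone, out of 22109 genes with such a cluster. Of these, 12147 genes reached a log2 level of 3.80, the median of all values of single-symbol clusters, on at least 1 array and were tested. The tested set holds 9 of the 10, and CD14 stayed below that level on every array.

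All arrays came from MV4-11, an established acute myeloid leukaemia line with a KMT2A rearrangement. A first set of 8 arrays came from cells transduced with shRNAs and then given 3 µM doxycycline for 24 hours: a luciferase shRNA (shLuc), the RUNX1, RUNX2 or RUNX3 shRNA alone (shRx1, shRx2, shRx3), the combinations shRx1+shRx2, shRx1+shRx3 and shRx2+shRx3, and all 3 together (the triple knockdown). A second set of 3 arrays came from untransduced cells kept for 6 hours with DMSO or with 1 µM of Chb-M' or Chb-50, which the series calls alkylating PIP conjugates (PIP: pyrrole-imidazole polyamide, a DNA minor-groove binder). Each condition had 1 array, and the series asked how expression changes across the genome under these treatments.

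RUNX1, RUNX2 and RUNX3 are transcription factors that pair with CBFB and recognise a short motif, and RUNX1 takes part in deciding when myeloid progenitors mature. As monocytes mature from progenitors they gain surface receptors for bacterial products, immunoglobulin and adhesion ligands, and they build a large lysosomal compartment. Among these 10 genes, LILRA2 is an activating receptor of the leukocyte immunoglobulin-like receptor family, IGSF6 is an immunoglobulin-domain protein of myeloid cells, and CD38 is an ectoenzyme that consumes NAD. SORL1 is a sorting receptor of the VPS10 family, SEMA6B is a transmembrane semaphorin that signals through plexins, and HTR2B is a serotonin receptor. MANSC1 is a membrane protein of little known function, SERPINF1 is the secreted serpin also called PEDF, CD68 lies in the lysosomal membrane, and CD14 is the co-receptor for lipopolysaccharide.

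Promoter sequence was available from RefSeq (GRCh38.p14) for 6 of the 10 genes, namely CD38, LILRA2, IGSF6, SORL1, CD68 and CD14. The RUNX motif was searched as TGTGGT and as TGCGGT, on either strand, in the 300 bases from 250 before to 50 after each start; the 2 spellings cannot match at the same position. Only LILRA2 held a match, 1 copy of TGTGGT that begins 43 bases before the start. For LILRA2 and CD14 the start used lies inside the RefSeq gene span, not at its outer end, so the LILRA2 match depends on the start chosen. Over all 35116 RefSeq promoters of that length, 13.1% held TGTGGT, 7.29% held TGCGGT and 19.6% held either. A match of these letters is a description, not a binding site. The 250 bases before the start are shown for LILRA2 and IGSF6, whose levels followed the same pattern over the knockdown arrays, and for CD14, which read low on all arrays. Capitals mark the motif, LILRA2 lies on the plus strand at chr19:54573540-54573789, IGSF6 on the minus strand at chr16:21652609-21652858 and CD14 on the minus strand at chr5:140633176-140633425.
LILRA2: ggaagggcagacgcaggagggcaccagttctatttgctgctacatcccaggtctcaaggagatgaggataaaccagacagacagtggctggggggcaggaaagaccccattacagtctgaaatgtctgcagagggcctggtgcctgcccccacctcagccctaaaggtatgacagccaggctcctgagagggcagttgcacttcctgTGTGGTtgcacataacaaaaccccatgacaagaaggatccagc
IGSF6: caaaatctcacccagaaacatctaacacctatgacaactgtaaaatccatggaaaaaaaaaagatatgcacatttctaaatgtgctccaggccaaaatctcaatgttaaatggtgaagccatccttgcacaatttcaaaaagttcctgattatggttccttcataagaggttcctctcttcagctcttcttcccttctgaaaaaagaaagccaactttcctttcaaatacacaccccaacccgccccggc
CD14: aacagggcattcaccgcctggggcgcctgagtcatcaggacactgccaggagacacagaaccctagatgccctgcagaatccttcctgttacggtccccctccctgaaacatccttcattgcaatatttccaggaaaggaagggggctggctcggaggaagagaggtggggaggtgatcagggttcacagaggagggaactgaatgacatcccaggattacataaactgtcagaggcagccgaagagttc

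The median level of a tested gene was 5.86 to 5.91, depending on the array. RUNX2 read 5.56 to 5.82 on the 4 arrays with its shRNA and 6.00 to 6.30 on the other knockdown arrays. RUNX3 read 7.65 to 7.87 with its shRNA and 8.15 to 8.37 on shLuc, shRx2 and shRx1+shRx2. However, shRx1, which is not labelled as carrying it, read 7.70. RUNX1 itself was seen only on a low cluster shared with LOC100506403 (3.96 to 4.26 with and 4.20 to 4.45 without its shRNA), so the knockdown of RUNX1 is weakly checked here. All 9 myeloid markers of the list on the array passed the level filter, but not all were high. The lowest reading on any array was 11.05 for lysozyme (LYZ), 9.33 for FLT3 and 8.50 for SPI1. MPO read 4.89 to 5.50 and ITGB2 5.14 to 5.85, below the median of a tested gene on every array. The arrays read RNA from whole cultures, so a change in the share of cells and a change in RNA per cell cannot be told apart.

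LILRA2 and IGSF6 were low on shLuc and on every single knockdown, and high where the RUNX1 shRNA was combined with another. LILRA2 read 5.60 on shLuc, 5.68 on shRx1, 5.69 on shRx2, 5.54 on shRx3 and 5.60 on shRx2+shRx3, against 6.54 on shRx1+shRx2, 6.98 on shRx1+shRx3 and 7.10 on the triple knockdown. The 3 high arrays did not overlap the others, and the untransduced arrays (5.61 with DMSO, 5.35 with Chb-M', 5.33 with Chb-50) lay with the low ones. IGSF6 read 4.69, 4.54, 4.74, 4.50 and 4.74 on the same 5 low arrays, then 5.03 on shRx1+shRx2, 5.65 on shRx1+shRx3 and 6.19 on the triple knockdown. DMSO gave 4.54 for IGSF6, so its reading on the triple knockdown was 2.82-fold that of shLuc and 3.13-fold that of DMSO. For LILRA2 the same ratios were 2.82 and 2.80.

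CD38 and SORL1 had their highest reading on shRx1+shRx3 rather than on the triple knockdown. CD38 read 3.70 on shLuc, below the level filter, and 4.99 on shRx1, 4.46 on shRx2, 4.58 on shRx3, 4.48 on shRx1+shRx2, 5.73 on shRx1+shRx3, 4.19 on shRx2+shRx3 and 5.34 on the triple knockdown. Its shRx1+shRx2 reading lay among the knockdown arrays without the RUNX1 shRNA although shRx1 lay above them, an order that MANSC1 also had. SORL1 read 4.51 on shLuc, 5.33 on shRx1, 5.01 on shRx2, 4.63 on shRx3, 5.41 on shRx1+shRx2, 6.17 on shRx1+shRx3, 4.60 on shRx2+shRx3 and 6.05 on the triple knockdown. Every array with the RUNX1 shRNA therefore read above every knockdown array without it. DMSO gave 4.32 for CD38 and 5.21 for SORL1, and the latter lay above all 4 knockdown arrays without the RUNX1 shRNA.

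SERPINF1 and SEMA6B read lower on shLuc than on any other array, by a wide margin for SEMA6B. SERPINF1 read 7.53 on shLuc, between 7.91 and 8.20 on shRx2, shRx3 and shRx2+shRx3, 8.06 on shRx1, 8.62 on shRx1+shRx2, 9.15 on shRx1+shRx3 and 9.07 on the triple knockdown. SEMA6B read 4.98 on shLuc and already 5.65 on shRx1, 6.02 on shRx2 and 6.18 on shRx3. Its combinations read 6.33 on shRx1+shRx2, 6.74 on shRx1+shRx3, 5.84 on shRx2+shRx3 and 6.63 on the triple knockdown. With DMSO the levels were 8.42 for SERPINF1 and 5.97 for SEMA6B, inside the range of the knockdown arrays.

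HTR2B and MANSC1 had the largest differences between the triple knockdown and shLuc among the genes tested, and both lay near or below the level filter. HTR2B read 3.52 on shLuc, 3.83 on shRx1, 4.10 on shRx2, 3.65 on shRx3, 4.28 on shRx1+shRx2, 4.73 on shRx1+shRx3, 3.89 on shRx2+shRx3 and 5.31 on the triple knockdown, which ranked 1 of all genes tested by its difference from shLuc. With shLuc below the filter and no detection call, that ratio may rest on background. MANSC1 read 2.61 on shLuc, 3.27 on shRx1, 2.81 on shRx2, 3.03 on shRx3, 3.10 on shRx1+shRx2, 3.68 on shRx1+shRx3, 3.20 on shRx2+shRx3 and 4.39 on the triple knockdown. MANSC1 passed the filter on that 1 array alone, so it could be tested only because it was high there.

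Of the monocyte markers chosen as such, CD68 had the smallest difference among the 9 tested genes (2.05-fold on the triple knockdown) and CD14 was not above the filter. CD68 read 9.29 on shLuc, 9.92 on shRx1, 9.87 on shRx2, 9.67 on shRx3, 10.23 on shRx1+shRx2, 10.29 on shRx1+shRx3, 9.71 on shRx2+shRx3 and 10.33 on the triple knockdown. Among the 8 knockdown arrays, those with and without the RUNX1 shRNA did not overlap for CD68, but the untransduced arrays, which carry none, read 9.88 with DMSO, 10.01 with Chb-M' and 9.96 with Chb-50, the last 2 above shRx1. Over the 6 single and double knockdown arrays, 8.09% of genes tested were likewise higher on every array with that shRNA. CD14 read between 2.21 and 2.56 over all 11 arrays with a median of 2.45, and its triple knockdown reading was 1.06-fold that of shLuc. No detection call was used here, so the CD14 readings may hold no transcript signal, and no difference was detectable.

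**Figure D1:**
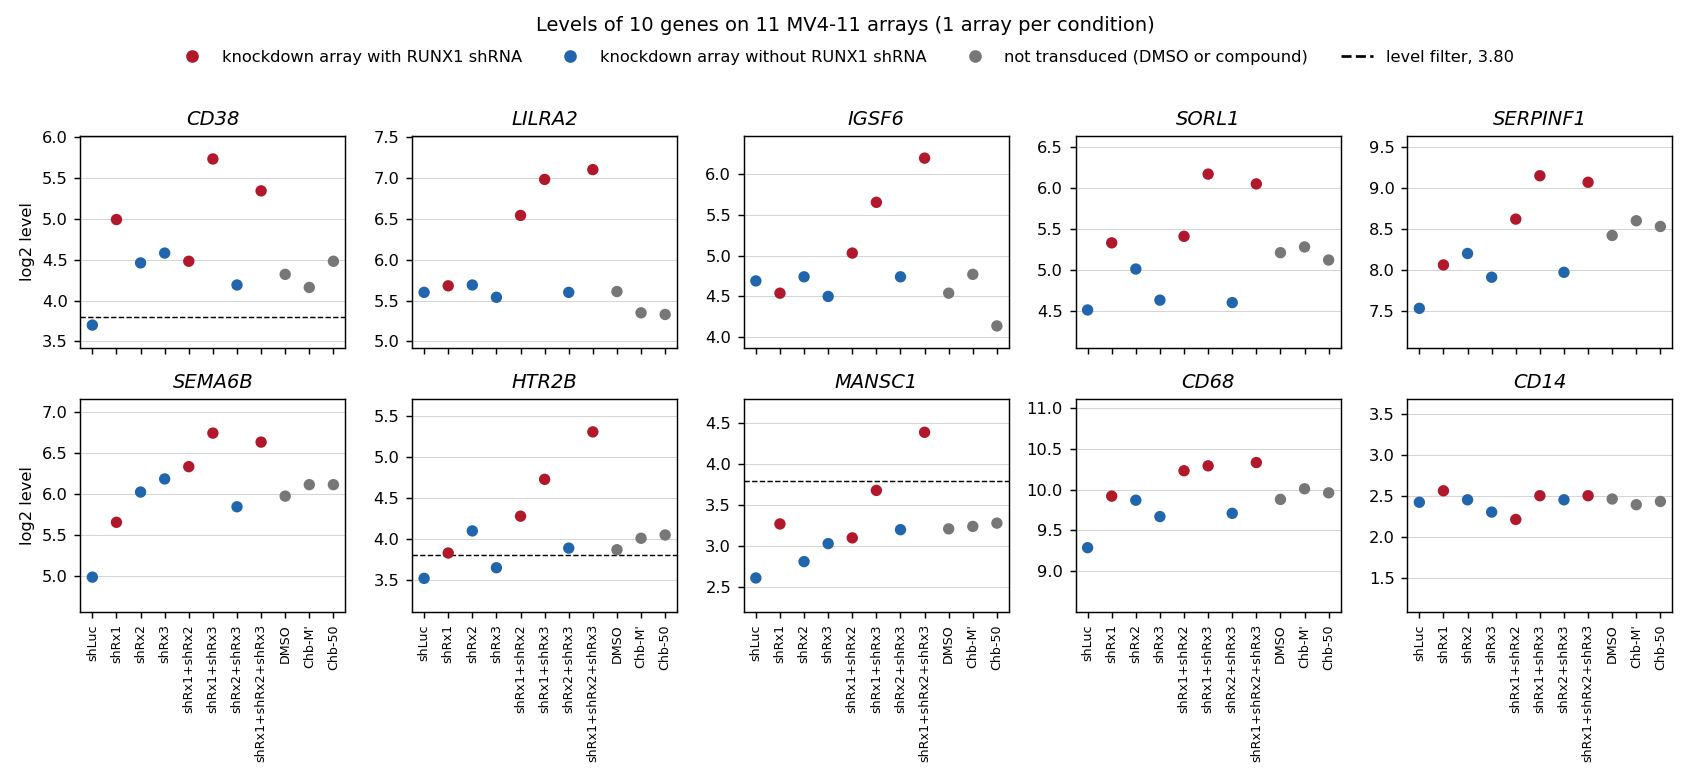
Log2 level of each gene (vertical axis, 2.6 log2 units in every panel) on each of 11 arrays (horizontal axis, 1 point per array); red points are knockdown arrays with the RUNX1 shRNA, blue those without, grey the untransduced arrays, and the dashed line is the level filter of 3.80. LILRA2 stays between 5.54 and 5.69 on shLuc, the single knockdowns and shRx2+shRx3 and reaches 6.54 to 7.10 on the other 3, while CD14 stays between 2.21 and 2.56.

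The choice of 8 genes by rank on the triple knockdown sets how far its values can be read. HTR2B (1.79), MANSC1 (1.78), SEMA6B (1.65), CD38 (1.64), SORL1 (1.54), SERPINF1 (1.54), LILRA2 (1.50) and IGSF6 (1.50) held 8 of the first 10 ranks of log2 difference, VAPA and SMIM14 holding the others. The genes just outside were the cytokine receptor IL31RA (1.47), PEAK3 (1.47) and DAPP1 (1.44), and CD68 stood lower at 1.04. All 9 tested genes were at least 2-fold higher on the triple knockdown, where 0.56% of the genes tested were, and nothing is read from a count that the choice fixed. Relative to the same shLuc array, 8 of 9 were at least 2-fold higher on shRx1+shRx3 (0.486% of genes tested), 2 on shRx1+shRx2 (0.247%), 1 each on shRx1 (0.0988%), shRx2 (0.0988%) and shRx3 (0.0741%), and 0 on shRx2+shRx3 (0.0412%). These 7 differences share the shLuc array and so are not independent of the choice.

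The shLuc array was the lowest of all 11 arrays for 7 of the 9 tested genes, the exceptions being LILRA2 and IGSF6. Over all genes tested it was lowest for 8.31%, but the genes were picked on a difference from that array and nothing is read from their share. DMSO, the vehicle array, read above shLuc for 8 of 9 (47.1% of genes tested) and at least 1.5-fold higher for 6 of 9 (3.35%), and again nothing is read from those shares. The differences were 0.99 for SEMA6B, 0.89 for SERPINF1, 0.70 for SORL1, 0.63 for CD38, 0.60 for MANSC1, 0.59 for CD68 and 0.35 for HTR2B. For LILRA2 the difference was 0.01 and for IGSF6 -0.15. Those cells differed from shLuc in time, transduction and doxycycline, which cannot be told apart. The triple knockdown values that served in the choice were also set against DMSO, as a description from which no count is read. The median difference was 1.02 in place of 1.54, and 5 of 9 genes were at least 2-fold higher (0.576% of genes tested): IGSF6 (1.65), LILRA2 (1.49), HTR2B (1.44), MANSC1 (1.19) and CD38 (1.02). SORL1 (0.85), SEMA6B (0.66), SERPINF1 (0.65) and CD68 (0.45) were not. On shRx1+shRx3, 3 of 9 were at least 2-fold above DMSO (0.576%): CD38 (1.41), LILRA2 (1.37) and IGSF6 (1.11).

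**Figure D2:**
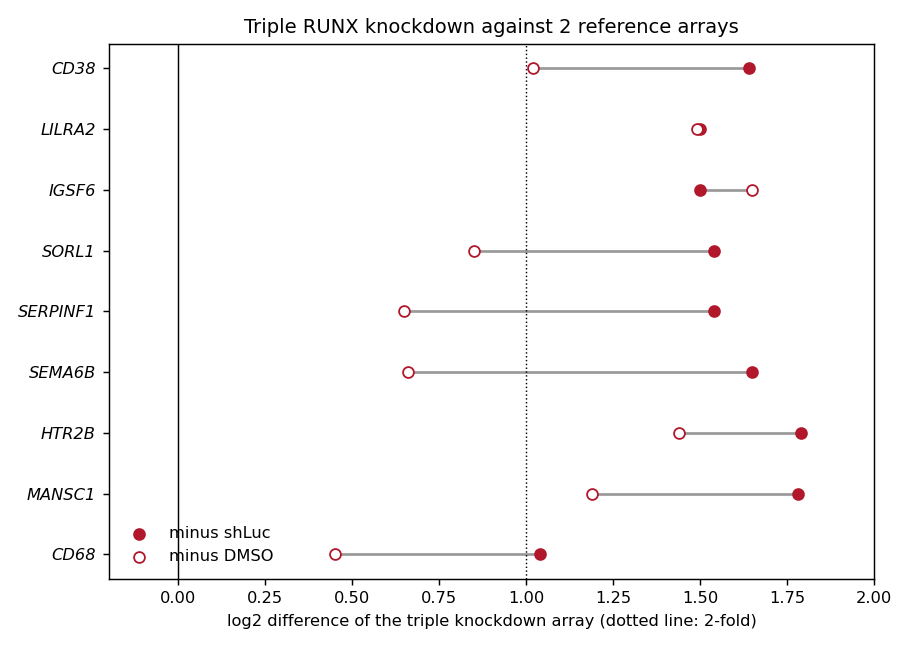
Log2 difference of the triple knockdown array from shLuc (filled points) and from DMSO (open points) for the 9 tested genes, joined by a line. SEMA6B moves from 1.65 to 0.66 with the reference, whereas LILRA2 stays at 1.50 and 1.49.

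The 6 single and double knockdown arrays took no part in the choice and were fitted with limma, with the 3 shRNAs as additive terms. No gene of the 9 passed the test for the RUNX1 shRNA, although all 9 had a positive estimate. The estimates were 1.15 for LILRA2 (SE 0.32, 95% interval 0.32 to 1.97), 0.97 for SORL1 (SE 0.32), 0.83 for SERPINF1 (SE 0.31), 0.72 for IGSF6 (SE 0.28), 0.63 for HTR2B (SE 0.28), 0.58 for CD38 (SE 0.29), 0.49 for CD68 (SE 0.15), 0.47 for MANSC1 (SE 0.12) and 0.43 for SEMA6B (SE 0.31). MANSC1 was tested only because of the triple knockdown and read 2.81 to 3.68 on these 6 arrays, below the level filter, so its estimate may rest on background. The other 8 genes were all positive too, with a median of 0.68, though HTR2B lay below the filter on shRx3 (3.65). Adjusted p-values of the 9 lay between 0.443 and 0.607 over all genes tested. Limma called 0 of 12147 genes (0%), with 1355 at an unadjusted p under 0.05. At that unadjusted level 6 of the 9 were higher (LILRA2, MANSC1, CD68, SORL1, SERPINF1 and IGSF6), or 5 of 8 without MANSC1, beside 5.8% of all genes tested. Over all genes the median estimate was 0.01 and 53.7% were positive. The 9 genes varied together over the 8 knockdown arrays (median pairwise r 0.86) and their estimates come from the same 6 arrays. Their counts are thus not counts of independent observations.

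The levels behind these estimates overlapped for most of the genes. SORL1 averaged 5.63 ± 0.462 (SD, n = 3) with the RUNX1 shRNA and 4.74 ± 0.228 (SD, n = 3) without it, and CD68 10.15 ± 0.199 (SD, n = 3) and 9.75 ± 0.105 (SD, n = 3). Those were the 2 of 9 whose arrays did not overlap, and 8.09% of all genes tested were likewise higher on all 3 arrays. For LILRA2 the averages were 6.40 ± 0.66 (SD, n = 3) on arrays with that shRNA and 5.61 ± 0.074 (SD, n = 3) on the others, and they overlapped at shRx1, which read 5.68. In this balanced layout, the RUNX1 estimate is the mean of the differences shRx1+shRx2 minus shRx2 and shRx1+shRx3 minus shRx3. For CD38 these were 0.02 and 1.15, for LILRA2 0.86 and 1.44, and for SEMA6B 0.31 and 0.56. Without shRx1+shRx3, all 9 estimates stayed positive but their median fell from 0.63 to 0.29, with 0.66 for LILRA2 and 0.05 for CD38 and for SEMA6B. Without shRx2 the median was 1.14 and without shRx1+shRx2 it was 0.88.

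For the RUNX2 and RUNX3 shRNAs the same limma fit called 0 genes each (0% for both terms), with 489 and 572 at an unadjusted p under 0.05. RUNX3 estimates were positive for all 9 genes, from 0.11 for CD68 to 0.60 for LILRA2 with a median of 0.40, and adjusted p-values were at least 0.922. Without MANSC1, which lay below the level filter on every array of the fit, the RUNX3 median was 0.39. RUNX2 estimates ran from -0.45 for CD38 to 0.46 for LILRA2 with a median of 0.17, and adjusted p-values were at least 0.997. The RUNX3 median became -0.09 without shRx1+shRx3 and 0.01 without shRx1. The RUNX2 median became -0.09 without shRx1 and 0.67 without shRx2+shRx3.

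**Figure D3:**
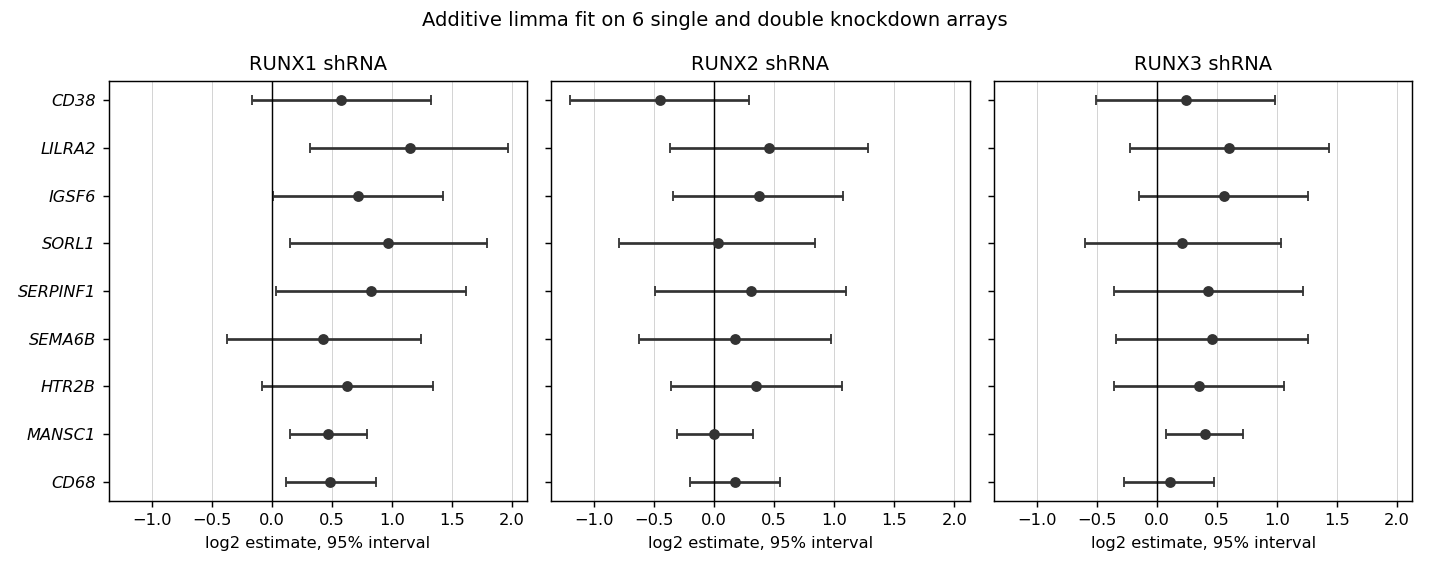
Limma estimates (points) and 95% intervals (bars) on the log2 scale for each shRNA in the additive fit on 6 arrays, 9 tested genes from top to bottom. For the RUNX1 shRNA the estimates run from 0.43 to 1.15, and no gene passed the test after adjustment in any panel.

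Differences between arrays with and without the RUNX3 shRNA were described by whether the RUNX1 shRNA was also there; the interaction was not tested. Between arrays that differ only in the RUNX3 shRNA and carry the RUNX1 shRNA, all 9 genes were higher in shRx1+shRx3 minus shRx1, where 52.4% of genes tested were, with a median of 0.90. Without the RUNX1 shRNA, 1 of 9 was higher in shRx2+shRx3 minus shRx2 (49% of genes tested), with a median of -0.18 and MANSC1 at 0.39. The count of 1 was made on rounded differences, so IGSF6, at 0.00, was not counted as higher. RUNX3 RNA itself differed by only -0.05 in shRx1+shRx3 minus shRx1 (7.65 against 7.70), and by -0.36 in shRx2+shRx3 minus shRx2. The first pair is thus a weak contrast of RUNX3 RNA. MANSC1 lay below the level filter on all arrays of both pairs. The other 2 pairs hold an array that the choice used, so nothing is read from their counts: 9 of 9 were higher in the triple knockdown minus shRx1+shRx2 (50.9% of genes tested, median 0.64) and 7 of 9 in shRx3 minus shLuc (46.8%, median 0.38). LILRA2 differed by 1.30 and 0.55 in the pairs with the RUNX1 shRNA and by -0.06 and -0.09 in those without. IGSF6 differed by 1.12 and 1.16 against -0.19 and 0.00, and HTR2B by 0.90 and 1.03 against 0.12 and -0.21. SORL1 (0.84 and 0.64 against 0.12 and -0.41) and SERPINF1 (1.09 and 0.45 against 0.39 and -0.23) were also higher in both pairs with the RUNX1 shRNA. SEMA6B did not follow this split, with 1.09 and 0.30 against 1.20 and -0.18. Neither did CD38 (0.74 and 0.86 against 0.89 and -0.27) or CD68 (0.37 and 0.10 against 0.38 and -0.16). MANSC1, with 0.42 and 1.29 against 0.42 and 0.39, was not clearly split.

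Set against the sum of the single knockdowns, the joint shRx1+shRx3 array split the genes. The singles shRx1 and shRx3 summed to 0.02 for LILRA2 over shLuc, and the joint array lay at 1.38. For IGSF6 the sum was -0.35 and the joint value 0.96, for HTR2B 0.43 and 1.21, for SORL1 0.94 and 1.66, and for SERPINF1 0.92 and 1.63. The joint value was within 0.14 of the sum for CD38 (2.03 against 2.18), SEMA6B (1.77 against 1.87), MANSC1 (1.07 against 1.08) and CD68 (1.00 against 1.01). All MANSC1 readings used here lay below the level filter, as did CD38 on shLuc (3.70) and HTR2B on shLuc (3.52) and shRx3 (3.65). RUNX3 RNA itself read 7.70 on shRx1 and 7.65 on shRx1+shRx3. Each sum subtracts the shLuc array, so a low shLuc reading raises the sum more than the joint value, and the excess was not tested. The triple knockdown, whose values served in the choice, differed from shRx1+shRx3 by 0.71 for MANSC1 (below the level filter on shRx1+shRx3), 0.58 for HTR2B, 0.53 for IGSF6 and -0.39 for CD38, and nothing is read from these signs. The other 5 tested genes differed by between -0.11 and 0.12.

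**Figure D4:**
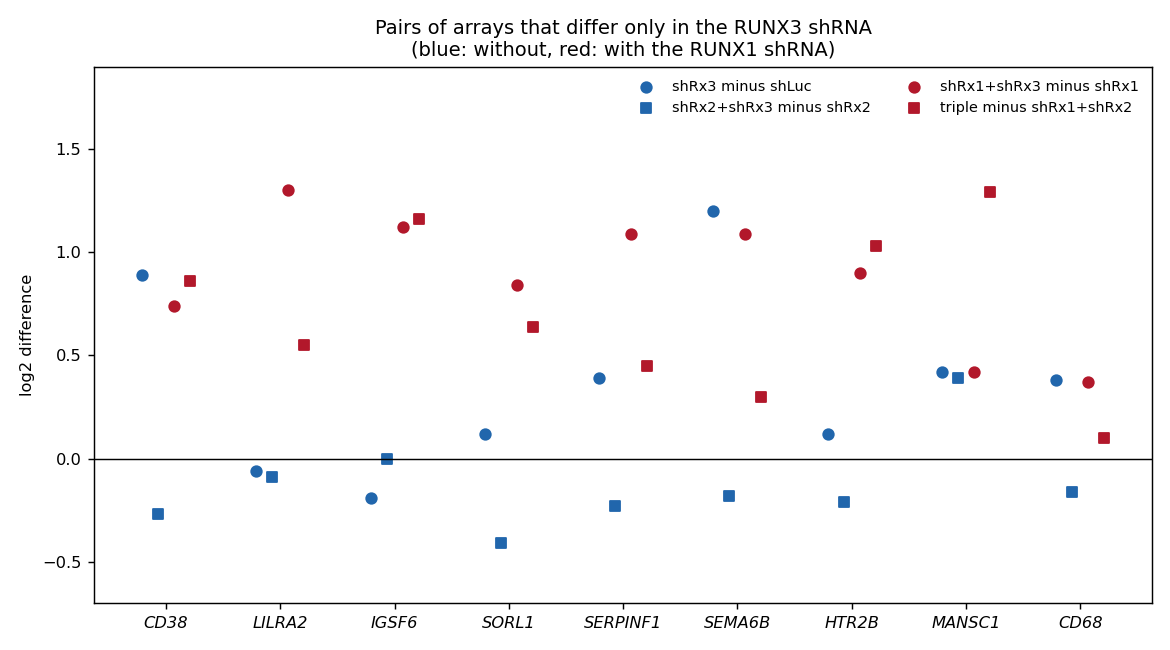
Log2 difference between arrays that differ only in the RUNX3 shRNA, for 9 tested genes; red pairs carry the RUNX1 shRNA and blue pairs do not, circles lack and squares carry the RUNX2 shRNA. All red points lie above 0, and the blue squares lie between -0.41 and 0.39. RUNX3 RNA itself differed by only -0.05 between the arrays of the red circles.

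None of these genes differed by as much as 2-fold on the compound arrays. Against DMSO at 6 hours, Chb-M' differed by -0.26 for LILRA2, -0.17 for CD38, 0.23 for IGSF6, 0.18 for SERPINF1, 0.14 for HTR2B, 0.13 for SEMA6B and CD68, 0.07 for SORL1 and 0.04 for MANSC1. Chb-50 differed by -0.41 for IGSF6, -0.28 for LILRA2, -0.09 for SORL1, 0.18 for HTR2B, 0.16 for CD38, 0.13 for SEMA6B, 0.11 for SERPINF1, 0.08 for CD68 and 0.07 for MANSC1. Both comparisons share the DMSO array. At least 2-fold differences in either direction were seen for 0 of 9 genes, beside 0.873% of genes tested with Chb-M' and 0.296% with Chb-50.

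A limma fit that pools the spread of the knockdown arrays called 0 of the 9 in either comparison (adjusted p from 0.841 to 0.988 with Chb-M' and from 0.901 to 0.994 with Chb-50), where it called 0.609% and 0% of all genes. The calls with Chb-M' were 74 genes, 77 without shRx1, 5 without shRx1+shRx3 and 0 without shLuc, shRx2, shRx3, shRx1+shRx2, shRx2+shRx3 or the triple knockdown array, while with Chb-50 1114 genes had an unadjusted p under 0.05. With 1 array per arm, its 95% intervals lay inside 2-fold either way for CD68 (-0.34 to 0.60) and SORL1 (-0.84 to 0.98) with Chb-M'. With Chb-50 they did so for CD68 (-0.39 to 0.55), SERPINF1 (-0.75 to 0.97) and, only just, SORL1 (-1.0 to 0.82). MANSC1 was below the level filter on all 3 arrays, so its narrow intervals bound no change in transcript. For LILRA2 with Chb-M' the interval was -1.35 to 0.82, so a fall of 2-fold could not be told from no change. The compounds compared directly at the same dose and time differed most for IGSF6 (0.64, interval -0.53 to 1.80) and CD38 (-0.32, interval -1.36 to 0.71), and for SEMA6B the levels were 6.11 and 6.11. No gene of the 9 was called (adjusted p from 0.905 to 1; 0% of all genes called), and 0.198% of genes tested differed at least 2-fold. Over the 3 untransduced arrays the 9 genes ranged by 0.07 to 0.64.

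**Figure D5:**
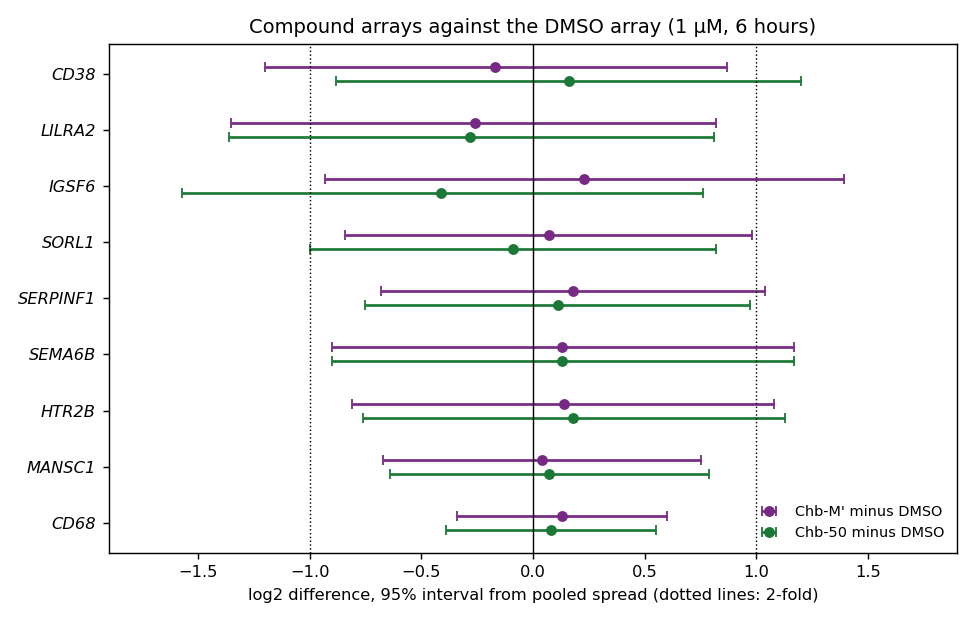
Log2 difference from the DMSO array with its 95% interval (pooled limma spread) for Chb-M' and Chb-50, 9 tested genes. Points lie between -0.41 and 0.23, and several intervals cross the dotted 2-fold lines.

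Other monocyte surface and secreted genes were examined from a list of 52, of which 33 were tested. In the 6-array limma fit 28 of 33 had a positive RUNX1 estimate, with a median of 0.21 beside 0.01 over all genes. The RUNX2 term gave the same count, 28 of 33, and the same median of 0.21, so this shift was not particular to the RUNX1 shRNA. The RUNX3 term gave 19 of 33 and a median of 0.03. For the RUNX1 shRNA none passed the test (0 of 33), with 9 higher and 1 lower at an unadjusted p under 0.05. Among all 12147 genes, 704 (5.8%) were higher and 1355 differed in either direction at that level. The integrin subunit ITGAX (0.98) and MS4A7 (0.66) were highest, and the chemokine CCL2 (-0.56) and the cytokine TNF (-0.47) lowest. ITGAX read 3.23 on shLuc, 4.74 on shRx1+shRx3 and 4.59 on the triple knockdown, but 5.28 to 5.44 on the 3 untransduced arrays, above every knockdown array.

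Relatives of the 10 genes had median RUNX1 estimates from 0.02 to 0.30 by list, and none passed the test. Of 5 tested leukocyte immunoglobulin-like receptors and their kin 4 were positive for the RUNX1 shRNA, led by the inhibitory receptor LILRB1 (0.61) and LILRA1 (0.32), with LAIR1 at 0.24 and LILRA3 at -0.08. The median of that list was 0.30 for the RUNX1, 0.37 for the RUNX2 and 0.20 for the RUNX3 shRNA. These receptors are similar in sequence, so part of a LILRA2 reading may come from relatives. The CD38 paralogue BST1 (0.08) and the kinase NADK (0.04) were the tested NAD genes. Of 7 VPS10 and retromer genes 5 were positive, and they ran from -0.17 for VPS26B to 0.26 for GGA2, with VPS26A at 0.17 and GGA3 at -0.03. Among 5 semaphorins and plexins (4 positive), PLXNA3 (0.25) and SEMA7A (0.21) were highest and PLXNA1 (-0.16) and SEMA4A (0.06) lowest, and HTR7 (0.11) was the only other serotonin gene tested.

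The serpin list had a median RUNX1 estimate of 0.11, the lysosomal membrane list 0.16 and the lipopolysaccharide receptor list 0.02. Of 6 serpins 4 were positive, from SERPINA1 (0.27) and SERPINB8 (0.18) to SERPINB10 (-0.09) and SERPINI1 (-0.24). Of 9 lysosomal membrane proteins 7 were positive, and LAMP1 (0.38) and SCARB2 (0.35) lay above LAMP5 (-0.05) and TMEM192 (-0.08). Of 7 CD14 partners and their signalling genes 4 were positive; TRAF6 (0.22) and TICAM1 (0.21) were highest, and IRAK1 (-0.05) and TIRAP (-0.08) lowest. None of these genes passed the limma test.

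Lists of markers of other blood cells had low means, although some single markers were well expressed. The mean over the list ran from 3.36 to 3.66 for 10 T and NK cell markers (4 tested), 3.01 to 3.25 for 8 B and plasma cell markers (4 tested), 2.57 to 2.78 for 7 erythroid markers (2 tested), 3.40 to 3.60 for 7 megakaryocyte markers (4 tested) and 3.25 to 3.48 for 8 mature granulocyte markers (3 tested). On shLuc and the triple knockdown these means were 3.52 and 3.36, 3.03 and 3.06, 2.65 and 2.62, 3.47 and 3.51, and 3.25 and 3.36 in that order. The cytokine receptor gene IL7R read 6.91 on shLuc, 5.27 on shRx1+shRx3 and 5.68 on the triple knockdown, and between 6.31 and 7.28 on the other arrays. CSF3R, the receptor for granulocyte colony-stimulating factor, read 5.96 on shLuc and was highest on shRx1+shRx3 (6.75) and the triple knockdown (6.70), and NKG7 read 6.28 to 7.26 over all arrays. The part of such cells or genes in the values of the 10 genes was not tested. For the RUNX1 shRNA the extreme estimates were CD5 (0.27), NKG7 (0.25), CD8A (-0.04) and IL7R (-0.36) among T and NK markers, and CD79A (0.18), MZB1 (0.10), CD79B (0.10) and SDC1 (-0.06) among B and plasma cell markers. They were HBG1 (0.24) and EPB42 (-0.06) among erythroid, ITGA2B (0.16), PF4 (0.16), GP6 (-0.11) and GP1BA (-0.30) among megakaryocyte, and CSF3R (0.33), CXCR2 (0.17) and LCN2 (-0.05) among granulocyte markers. Of the line's own 9 myeloid markers 7 were positive, and they ran from CSF1R (0.38) and ITGB2 (0.22) to MPO (-0.01) and SPI1 (-0.04), and none of the markers passed the limma test.

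Genes next to the 10 on the chromosome, by RefSeq order among the genes tested, had RUNX1 estimates from -0.23 to 0.48. The largest were LRG1 beside SEMA6B (0.48), LILRA1 beside LILRA2 (0.32), SC5D beside SORL1 (0.29) and ARMC9 beside HTR2B (0.28). The lowest were PSMD1, which overlaps HTR2B in the annotation (-0.23), MPDU1 beside CD68 (-0.15) and TAPT1 beside CD38 (-0.12). METTL9, which overlaps IGSF6, was at 0.16, and BST1, next to CD38, was at 0.08. None passed the limma test.

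Genes whose knockdown pattern was most like the mean of the 9 were found by Pearson's r over the 8 knockdown arrays, among 2359 genes with an SD of at least 0.2. The closest were the signalling adaptor DAPP1 (0.990), carboxypeptidase CPD (0.987), PLD3 (0.984), CYP2S1 (0.983), KDM1B (0.982), PLD4 (0.980), ZNF385A (0.979) and the G protein subunit GNG7 (0.979). The most opposed were KIF22 (-0.994), GINS4 (-0.994), LMNB1 (-0.990) and the asparagine synthetase ASNS (-0.988). KIF22 and GINS4 act in mitosis and replication. These 8 arrays include shLuc and the triple knockdown, and the values are given as a description. Among the 9 genes themselves the 36 pairwise r lay between 0.68 and 0.96 with a median of 0.86.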

How the data were processed

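Transcript levels of MV4-11 cells were read on 11 Affymetrix arrays, 1 per condition. Each deposited value is a log2 level for a transcript cluster. The submitters' processing notes list RMA, Transcriptome Analysis Console 1.0 and Affymetrix Expression Console 1.3.1 without saying which did what. That the scale is log2 was judged from the range of values (0.48 to 12.74). The genome build was not given in the sources used here. Of 53617 clusters, 23558 had 1 gene symbol, 2155 several and 27904 none listed; 22271 matched RefSeq (GRCh38.p14) by Entrez identifier and 3 symbols were updated. The cluster of highest mean was used per gene.

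Limma 3.58.1 in R 4.3.3 was fitted to the 6 arrays the choice of genes did not use (additive shRNA terms, 2 residual and 3.04 prior degrees of freedom) and to all 11 arrays for the compounds (7.19 total degrees of freedom). P-values are two-sided, moderated by eBayes and adjusted by the Benjamini-Hochberg method over all genes tested, at a threshold of 0.05. With 1 array per condition they rest on the scatter among arrays, possibly technical, which includes any interaction between shRNAs. The number of arrays limits the precision. The scripts were tested on simulated data.

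The 10 genes, the lists and the naming rule were chosen with earlier results of these data known. The rule named the 10 genes, the 3 genes ranked just below them, the 2 highest and 2 lowest of each list, neighbours, and the 8 most and 4 least alike genes. Antisense loci, olfactory receptors, small RNAs and uncharacterised genes were left unnamed. RUNX2, RUNX3 and the cluster listed for RUNX1 were added as checks, and LYZ, FLT3 and a few further genes were named after their values were seen. Alternatives were the level filter (none, or 5), normalization, cluster averaging, single terms, a mean-level trend and leaving out each array. DMSO as reference, other fold thresholds and recounting the monocyte list were added after seeing the data.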

Additional observations from a re-analysis of the deposited data

Results flagged for a closer look

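For 3 genes the differences between arrays with and without an shRNA had opposite signs depending on another shRNA, and none of this was tested. The search covered all 9 tested genes and every pairing of the shRNAs, with no threshold of size. Several values are small, such as -0.06 and -0.09 for LILRA2 and -0.03 and 0.08 for SORL1, and each rests on single arrays. For LILRA2 the RUNX3 shRNA gave 1.30 and 0.55 with the RUNX1 shRNA and -0.06 and -0.09 without it, a difference of 1.00 between the means. For SEMA6B the RUNX2 shRNA gave -0.34 and -0.11 with the RUNX3 shRNA and 1.05 and 0.68 without it, a difference of -1.09. For SORL1 the RUNX2 shRNA gave -0.03 and -0.11 with the RUNX3 shRNA and 0.50 and 0.08 without it, a difference of -0.37. The pairs include the shLuc and triple knockdown arrays on which the genes were chosen.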

How the results depend on the processing

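No paired analysis was possible because each condition has 1 array and all carry the same replicate number. All 125 alternative RUNX1 estimates of the 9 genes, and all 134 for each compound against DMSO, kept their sign and stayed short of the threshold. Signs turned in 20 of 125 RUNX2, 11 of 125 RUNX3 and 2 of 134 Chb-M' minus Chb-50 values, none of them past the test in any setting; the cause was not tested. RUNX2 estimates turned with quantile normalization (SORL1 -0.0015, MANSC1 -0.02) and median centring (SORL1 -0.01, MANSC1 -0.03). With RUNX2 as the only term they turned for LILRA2 (-0.13), IGSF6 (-0.06), SORL1 (-0.37), SERPINF1 (-0.11), SEMA6B (-0.12), MANSC1 (-0.29) and CD68 (-0.03). RUNX3 as the only term turned SORL1 (-0.12) and CD68 (-0.12). The LILRA2 difference between compounds became -0.01 with quantile normalization and with median centring. Leaving out each array, RUNX2 estimates ranged from -0.09 to 1.01 for LILRA2, -0.32 to 0.37 for SORL1, -0.15 to 0.76 for SERPINF1, -0.40 to 0.75 for SEMA6B, -0.17 to 0.18 for MANSC1 and -0.03 to 0.37 for CD68. RUNX3 estimates ranged from -0.30 to 0.77 for CD38, -0.38 to 0.81 for SORL1, -0.11 to 0.97 for SERPINF1, -0.11 to 1.03 for SEMA6B, -0.16 to 0.85 for HTR2B and -0.10 to 0.31 for CD68. The count of genes called with Chb-M' fell from 74 to 7 without the level filter, 49 with averaged clusters and 0 with the spread of 6 arrays, and ran from 0 to 77 without each knockdown array (77 without shRx1, 5 without shRx1+shRx3, and 0 without any other). The 9 genes at least 2-fold above the reference on the triple knockdown became 5 against DMSO and 4 at 3-fold. Signal over background is unknown, which limits the readings below the level filter. These are CD14 on all arrays, MANSC1 except on the triple knockdown, HTR2B on shLuc and shRx3, and CD38 on shLuc.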
